A study of Mus musculus with 6 samples.

Results

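Insulin signalling, the FoxO transcription factors and muscle atrophy are described here through 10 genes: the insulin receptor substrates Irs1 and Irs2, the PI3-kinase subunit gene Pik3r1, the transcription factor genes Foxo1, Foxo3 and Foxo4, the ubiquitin ligase genes Fbxo32 and Trim63, and the mTOR inhibitors Ddit4 and Sesn1. All probes whose only gene symbol in the platform annotation was one of these names were taken. This gave 17 probes for 8 of the 10 genes, out of 38467 probes in all, and left Irs2 and Trim63 without a value. The cells were C3H10T1/2, a mouse embryonic mesenchymal line able to become muscle, cartilage, bone or fat cells and none of these when untreated. In all, 3 cultures were given 1 µM dexamethasone, a synthetic glucocorticoid, for 90 minutes, and 3 cultures, also labelled 90 minutes, were given its solvent DMSO (vehicle). The series description calls them biological replicates. All cultures were grown in DMEM with 10% serum.

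Insulin and IGF receptors phosphorylate IRS adaptor proteins, which recruit PI3-kinase. PI3-kinase activates the kinase Akt, and Akt both stimulates growth through mTOR and keeps FoxO proteins out of the nucleus. When the pathway is quiet, FoxO proteins enter the nucleus and, in muscle, switch on the ubiquitin ligases atrogin-1 (Fbxo32) and MuRF1 (Trim63). Glucocorticoids are known to oppose this pathway at several steps and to cause muscle wasting, and Pik3r1, Ddit4 and Foxo3 are known glucocorticoid-induced genes in muscle.

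On each array the RNA of 1 culture carried Cy3 and the same mixed RNA, the pool, carried Cy5. The deposited values were read as log2 ratios of the channels, so they compare a gene between cultures but give no level that can be set against another gene's. Sample over pool is the likely direction but not a settled one, since the labels do not say which way the ratio was taken. It rests on textbook glucocorticoid targets: the log2 ratios of Fkbp5 were 1.30, 0.20 and 1.23 with dexamethasone, against -3.02, -3.06 and -3.00 with vehicle, and those of Per1 were 0.93, 0.95 and 0.40 against -1.43, -1.50 and -1.41. Of 6 such targets looked at, 5 lay above vehicle on all dexamethasone arrays and Zbtb16, which had no probe free of low signal, did not. If the ratio was taken the other way, each higher stated here is a lower and the reverse. The lowest Spearman correlation between arrays over all probes was -0.33, between dexamethasone 3 and vehicle 2. The arrays formed sets that crossed the treatments: dexamethasone 1 correlated with vehicle 1 at 0.52 and with dexamethasone 2 at -0.23, while dexamethasone 2 correlated with vehicle 3 at 0.40. The set of dexamethasone 2, dexamethasone 3 and vehicle 3 had more values equal to a ratio of whole numbers up to 10, as very dim spots give: 7.73% to 12.7%, against 1.86% to 3.79% in the other set. Some of these matches can be chance, since values have 3 decimals. A probe is called low in signal below if any of its values was missing, was such a ratio, or exceeded 10 in size. Of the 17 member probes, 13 were free of that.

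The members went in both directions. Ddit4, Foxo3, Pik3r1 and Sesn1 had higher log2 ratios on all 3 dexamethasone arrays than on any vehicle array, and Fbxo32 and Irs1 had lower ones on all 3. Foxo1 and Foxo4 overlapped between the groups. Non-overlap above vehicle was seen for 4 of the 8 measured members, against 10.4% of all 27046 genes and unnamed probes tested, and non-overlap below vehicle for 2 of 8, against 6.42%. With the sign turned the counts would be 2 above and 4 below. No member passed the test across all genes: limma called 0 of the 27046, which is 0%, at a Benjamini-Hochberg adjusted p under 0.05. With low-signal probes left out it called 29 of 17152, or 0.169%, and 0 of these 29 were members. With the sets of arrays as a block in that fit it called 0. At an unadjusted p under 0.05 there were 4 members higher (4.43% of all genes) and 2 lower (0.995% of all genes). The members' median difference was 0.50, and that of all genes was 0.32. Once every array's own median was subtracted, the members' median was 0.19 and that of all genes 0.018. Relative to that shift the member differences ran from -1.38 for Fbxo32 to 1.20 for Ddit4.

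**Figure D1:**
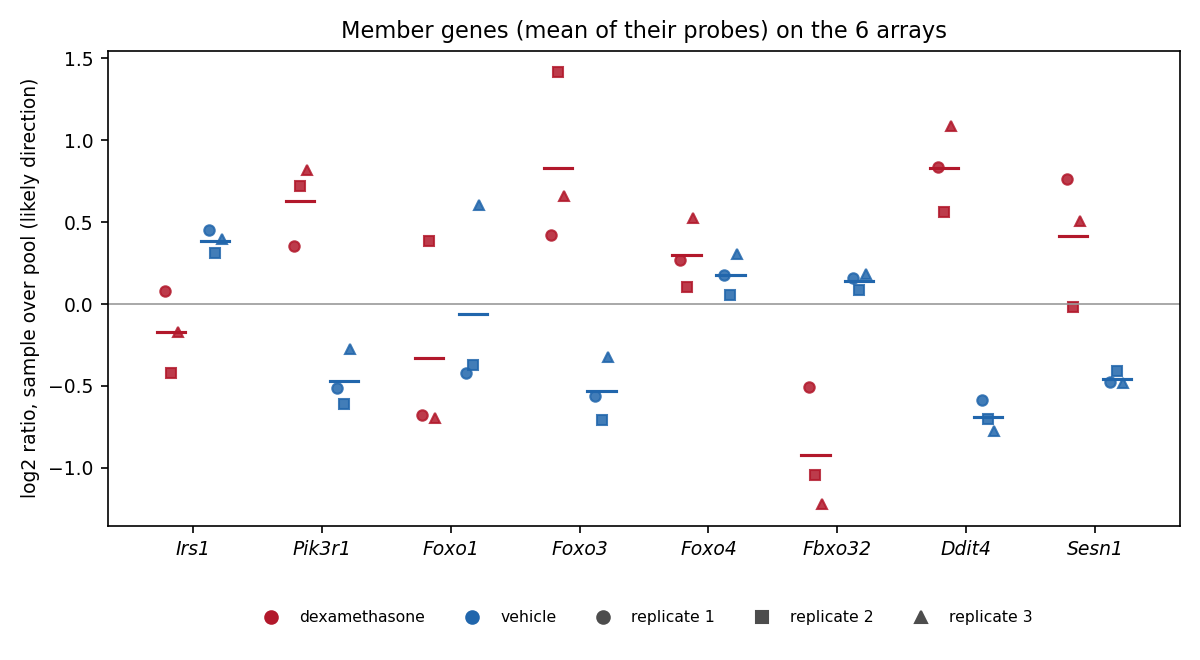
Log2 ratio of sample over pool (likely direction) for the 8 measured members, each the mean of its probes. Red points are dexamethasone cultures and blue points vehicle cultures, marker shapes are replicate numbers and bars are group means. Red and blue do not overlap for Irs1, Pik3r1, Foxo3, Fbxo32, Ddit4 and Sesn1.

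Among the adaptors and the kinase they recruit, Irs1 was lower and Pik3r1 higher with dexamethasone. Irs1, the main insulin receptor substrate of many tissues, had log2 ratios of 0.077, -0.42 and -0.17 with dexamethasone, against 0.45, 0.31 and 0.40 with vehicle. All dexamethasone values lay below all vehicle values. The difference was -0.56 ± 0.21 (SE), 1.47-fold lower, with a limma adjusted p of 0.732. Its probes agreed in direction, at -0.40 for mMR030291 and -0.72 for mMC008279, of which the second had a low-signal value on 1 array. After quantile normalization of the arrays the difference was -1.46, with overlapping groups, and after median centring it was -0.87.

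Pik3r1 encodes the regulatory subunit p85alpha and its shorter forms p55alpha and p50alpha, which hold and stabilise the catalytic subunit. Over its 4 probes the log2 ratios averaged 0.35, 0.72 and 0.82 with dexamethasone, against -0.52, -0.61 and -0.27 with vehicle. The groups were clear of each other, with a difference of 1.10 ± 0.22 (SE), 2.14-fold higher, ranked 241 by p among the 27046, with a limma adjusted p of 0.44. The probe mMA031737 differed from the others: it had a low-signal value, its groups overlapped, and its difference was 0.63 ± 0.50 (SE). The remaining probes gave 1.65 ± 0.33 (mMA032318), 1.19 ± 0.18 (mMA032785) and 0.92 ± 0.15 (mMR026375; SE). On mMR026375 the dexamethasone arrays stood at 0.55, 0.40 and 0.34 and the vehicle arrays at -0.49, -0.49 and -0.50. Without low-signal probes, Pik3r1 stood at 0.60, 0.64 and 0.76 with dexamethasone, against -0.61, -0.64 and -0.51 with vehicle. That difference was 1.25 ± 0.13 (SE), ranked 34 by p among 17152, with a limma adjusted p of 0.0668, the smallest of any member gene in that fit. With the array sets as a block in that fit, its limma adjusted p was 0.2, and with median centring 0.158.

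**Figure D2:**
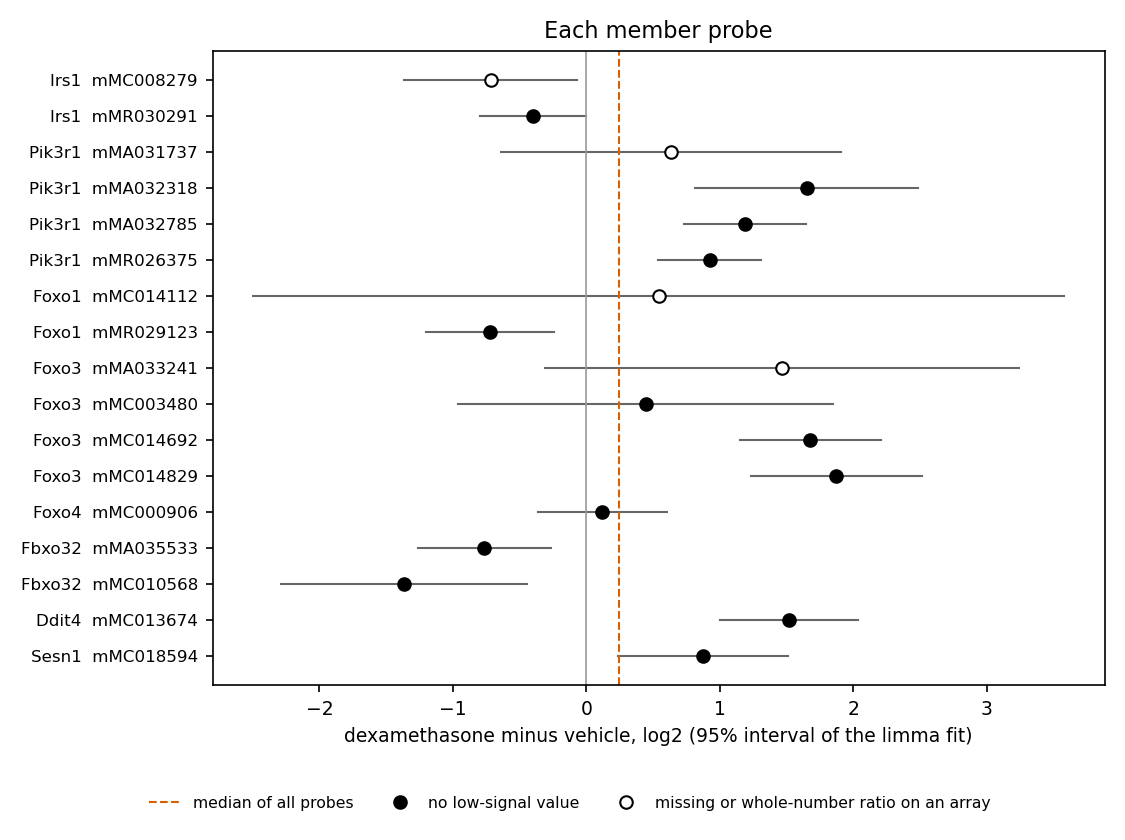
Dexamethasone minus vehicle difference (log2) of each of the 17 member probes with its 95% interval from the limma fit over all probes. Open circles are probes with a low-signal value on an array, and the dashed line is the median of all probes, 0.24. The intervals of the low-signal probes of Pik3r1, Foxo1 and Foxo3 span 0, as do those of Foxo4 and the Foxo3 probe mMC003480.

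Of 5 other PI3-kinase subunit genes on the array, 3 lay below vehicle without overlap (6.42% of all genes) and 1 above (10.4% of all genes). Pik3r3, which encodes the regulatory subunit p55gamma, had log2 ratios of -0.39, -0.46 and -1.03 with dexamethasone, against 0.47, 0.39 and 0.33 with vehicle. It was 2.03-fold lower, a difference of -1.02 ± 0.24 (SE), with a limma adjusted p of 0.581. The catalytic subunit gene Pik3cb stood at 0.009, -0.72 and -0.84 with dexamethasone, against 0.14, 0.35 and 0.14 with vehicle (adjusted p 0.732 in limma). Here too the groups did not overlap, although dexamethasone 1 was close to the vehicle arrays. Pik3ca and Pik3r2 were named after their values were seen. Pik3ca differed by -0.30 ± 0.18 and Pik3r2, the p85beta gene, by 0.22 ± 0.17 (SE). Pik3cd, the catalytic subunit best known from white blood cells, differed by 1.67 ± 0.83 (SE), but its groups overlapped and none of its probes was free of low signal. The difference between Pik3r1 and the other subunits was not tested.

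**Figure D3:**
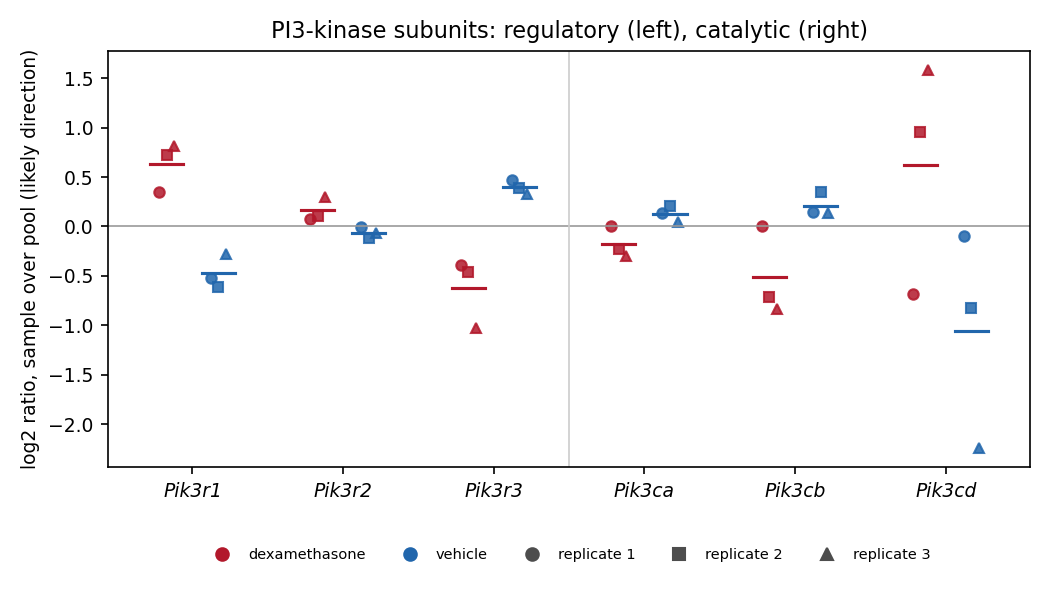
Log2 ratio of sample over pool (likely direction) for 6 PI3-kinase subunit genes on the 6 arrays, regulatory subunits to the left of the line and catalytic ones to its right. Red points are dexamethasone cultures, blue points vehicle cultures and bars group means. Pik3r1 and Pik3r2 have the dexamethasone points above the vehicle points, and Pik3r3, Pik3ca and Pik3cb have them below.

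Of the 3 FoxO genes, Foxo3 lay above vehicle, Foxo1 below on its cleaner probe, and Foxo4 overlapped. Foxo3, whose protein drives atrophy and autophagy genes in muscle, had 4 probes that averaged 0.42, 1.41 and 0.66 with dexamethasone, against -0.56, -0.71 and -0.33 with vehicle. The groups did not overlap, and dexamethasone 2 was the highest array. The difference was 1.36 ± 0.32 (SE), 2.57-fold, with a limma adjusted p of 0.582. The average includes mMA033241, which had a low-signal value and gave 0.74, 2.17 and -0.47 with dexamethasone, against -0.75, -0.58 and -0.62 with vehicle (difference 1.46 ± 0.69, SE). The probe mMC014829 gave 0.40, 1.10 and 1.10 with dexamethasone, against -1.03, -0.99 and -1.01 with vehicle, a difference of 1.87 ± 0.25 (SE). The probe mMC014692 gave 0.80, 1.10 and 1.35 with dexamethasone, against -0.64, -0.68 and -0.47 with vehicle. In the probe by probe fit this was a 3.20-fold difference with a limma adjusted p of 0.178, the smallest of the 17 probes, and a limma adjusted p of 0.0664 over the probes free of low signal. On mMC003480, also free of low signal, the groups overlapped, with a difference of 0.44 ± 0.55 (SE). Where on the transcript each probe lies is not given in the sources used here.

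Foxo1, the FoxO protein best known from liver and fat, depended on the probe. The probe without low signal, mMR029123, gave -0.42, -0.89 and -0.69 with dexamethasone, against 0.023, 0.025 and 0.11 with vehicle. All dexamethasone values were lower, by 0.72 ± 0.19 (SE) on the log2 scale or 1.65-fold, with a limma adjusted p of 0.632 over all probes and a limma adjusted p of 0.361 over the 23112 probes free of low signal. The other probe, mMC014112, had no value on dexamethasone 3 and swung between the sets of arrays: it stood at -0.93 and 1.66 on dexamethasone 1 and 2, against -0.86, -0.77 and 1.10 on the vehicle arrays. Averaging both probes gave Foxo1 a difference of -0.27 ± 0.46 (SE) with overlapping groups, and in that average dexamethasone 3 came from mMR029123 alone.

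Foxo4 showed the smallest difference of the 8 members. Its probe stood at 0.27, 0.10 and 0.52 with dexamethasone, against 0.18, 0.054 and 0.30 with vehicle. The groups overlapped, and the difference of 0.12 had a 95% interval from -0.40 to 0.63. It was below the median of all genes and turned to -0.19 when each array was centred on its median. Foxo6, the remaining FoxO gene, which was not a member, gave 0.18, 0.29 and 0.42 with dexamethasone, against -0.010, -0.18 and -0.23 with vehicle. That is a difference of 0.43 ± 0.18 (SE) without overlap, 0.11 above the median of all genes, with a limma adjusted p of 0.732.

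Of the atrophy ligase genes among the members, only Fbxo32 could be measured, and it was lower with dexamethasone. Fbxo32 encodes atrogin-1, which marks proteins of wasting muscle for degradation. Its 2 probes averaged -0.51, -1.05 and -1.22 with dexamethasone, against 0.16, 0.083 and 0.18 with vehicle. The vehicle arrays were close together and the dexamethasone arrays spread below them. The difference was -1.07 ± 0.25 (SE), 2.09-fold lower, and 3.22% of all genes and unnamed probes had a difference as low or lower. The limma adjusted p was 0.572, and after quantile normalization the difference was -1.74. Each probe showed it, mMA035533 at -0.77 ± 0.19 and mMC010568 at -1.36 ± 0.36 (SE), and neither had a low-signal value. On mMC010568 the dexamethasone arrays ran from -0.48 to -1.75, a wider spread than the vehicle arrays, which ran from 0.15 to 0.37. Ligase genes outside the members went both ways. Fbxo30 (-0.80) and Nedd4 (-0.22) lay below vehicle without overlap (6.42% of all genes), and Fbxo31 (0.37) lay above (10.4% of all genes). The groups of Fbxo21, Fbxo40, Traf6 and Stub1 overlapped.

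The other member ligase, Trim63 (MuRF1), had no probe. Its promoter is known to respond to the glucocorticoid receptor and FoxO together in muscle, and the stretch below is shown because motif letters of both stand side by side in it, at chr4:134314912-134314941 on the plus strand of GRCm38.p6, from the RefSeq promoter table. Capitals mark the letters GAACANNNTGTTC and TGTTCT of a glucocorticoid receptor site, which run into the FoxO letters TGTTTAC with 0 bases between.
Trim63: GAACAGTCTGTTCTTGTTTACgacccccac
Windows of 250 bases before to 50 after the start were searched on both strands for the receptor's single motif AGAACA, the FoxO site GTAAACA and the paired site GAACANNNTGTTC, which overlaps the single motif. The single motif was in 19% of all 32851 windows, the FoxO site in 3.65%, both in 0.877% and the paired site in 0.0578%. The table held 10 windows of 8 members, and Trim63 was the only member with the single motif or the paired site in its window. A longer form of the paired site, with a further letter at each end, was also searched. It was in 0.00913% of all windows and had 0 matches in the member windows, Trim63 included. The Trim63 match is thus to the shorter form only. No match says only that these letters were absent from that window.

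Both mTOR inhibitors among the members were higher. Ddit4 encodes REDD1, which restrains mTOR complex 1 through the TSC proteins. Its probe mMC013674 gave 0.84, 0.56 and 1.09 with dexamethasone, against -0.59, -0.70 and -0.78 with vehicle. No array came near the other group. The difference was 1.52 ± 0.21 (SE), 2.86-fold higher, the largest of the 8 members, and it ranked 82 by p among the 27046. The limma adjusted p was 0.256, and it was 0.092 after low-signal probes were left out. In that filtered limma fit it was 0.268 with the array sets as a block and 0.284 with median centring. Within the set of dexamethasone 1, vehicle 1 and vehicle 2 the difference was 1.48, and within the set of dexamethasone 2, dexamethasone 3 and vehicle 3 it was 1.60.

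Sesn1 encodes sestrin 1, a stress-induced inhibitor of mTOR complex 1 and a known FoxO and p53 target. Its probe gave 0.76, -0.019 and 0.51 with dexamethasone, against -0.48, -0.41 and -0.48 with vehicle. The groups did not overlap, but dexamethasone 2 lay lower than the other dexamethasone arrays. The difference was 0.87 ± 0.26 (SE), 1.83-fold, with a limma adjusted p of 0.732, and 0.56 after median centring, where the groups overlapped. Sesn3, a related gene outside the members, pointed the other way, with -0.083, -0.67 and -0.32 under dexamethasone, against 0.30, 0.049 and 0.072 under vehicle. That was a difference of -0.50 ± 0.23 (SE) with a limma adjusted p of 0.732. Further mTOR inhibitor genes outside the members had overlapping groups. Sesn2 differed by -0.25 and Tsc1 by -0.27, while Ddit4l differed by 0.23, Akt1s1 by 0.32, Tsc2 by 0.16 and Deptor by 0.48.

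The promoters of Ddit4, which had the largest difference, and of Foxo1, whose cleaner probe was lower, are shown because both windows lack the glucocorticoid receptor and FoxO letters and carry CCAAT boxes. Each run covers the 250 bases before the RefSeq start in GRCm38.p6: chr10:59951771-59952020 on the minus strand for Ddit4 and chr3:52268087-52268336 on the plus strand for Foxo1. Capitals mark the CCAAT box, read here from the opposite strand as ATTGG. It was looked for after the other motifs and was in 37.4% of all windows and in 6 of the 10 member windows. The windows of Irs2, 1 start of Pik3r1 and the downstream start of Sesn1 also carried it without receptor or FoxO letters.
Ddit4: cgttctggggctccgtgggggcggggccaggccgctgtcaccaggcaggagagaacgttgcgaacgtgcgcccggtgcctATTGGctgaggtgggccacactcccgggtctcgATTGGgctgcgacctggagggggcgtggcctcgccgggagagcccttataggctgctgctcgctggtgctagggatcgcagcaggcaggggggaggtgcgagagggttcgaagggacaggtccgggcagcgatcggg
Foxo1: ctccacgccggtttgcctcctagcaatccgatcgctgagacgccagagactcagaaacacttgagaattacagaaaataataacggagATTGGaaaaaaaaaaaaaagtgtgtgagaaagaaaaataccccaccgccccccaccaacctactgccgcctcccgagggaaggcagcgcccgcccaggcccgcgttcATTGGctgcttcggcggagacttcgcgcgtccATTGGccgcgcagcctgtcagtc
For Sesn1 the FoxO letters lay 23 bases into the transcript of the upstream start, within the stretch chr10:41810585-41810614 on the plus strand, here with TGTTTAC in capitals.
Sesn1: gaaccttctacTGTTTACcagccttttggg
The windows of Foxo3, Irs1, Irs2 and both starts of Pik3r1 held 0 glucocorticoid receptor and 0 FoxO matches.

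No gene of the wider pathway passed the test. Of 38 other genes from the insulin receptor to mTOR, 34 were tested: limma called 0, and the only gene with an unadjusted p under 0.05 was Pik3r3. Groups did not overlap for 1 gene above and 5 below vehicle, where 10.4% and 6.42% of all genes did so, and the list's median difference was 0.079, against 0.32 for all genes. Akt2, named after its values were seen, averaged -38.4 over its probes on dexamethasone 2, which no ratio of spot intensities gives. The difference of that average is not interpretable, and the values of its 1 probe free of low signal are not given here.

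Of 26 other FoxO targets and atrophy genes, 24 were tested and limma called 0, while Pdk4 (higher) and Gadd45a and Bcl2l11 (lower) had an unadjusted p under 0.05. Groups did not overlap for 4 genes above and 7 below vehicle, again beside 10.4% and 6.42% of all genes, and the median difference was -0.057. Pdk4, which turns cells from glucose to fat oxidation and is a known glucocorticoid and FoxO target, gave 0.65, 0.55 and 0.094 with dexamethasone, against -0.44, -0.39 and -0.31 with vehicle (difference 0.81 ± 0.22, SE; limma adjusted p 0.708). The growth arrest gene Gadd45a gave -0.71, -0.51 and -0.60 with dexamethasone, against 0.013, -0.014 and -0.078 with vehicle. The cell death gene Bcl2l11 (Bim) gave -0.30, -0.62 and -0.54 with dexamethasone, against 0.28, 0.057 and 0.14 with vehicle. Both were lower on all dexamethasone arrays, by 0.58 ± 0.17 and 0.65 ± 0.19 (SE) on the log2 scale, with a limma adjusted p of 0.732 each.

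**Figure D4:**
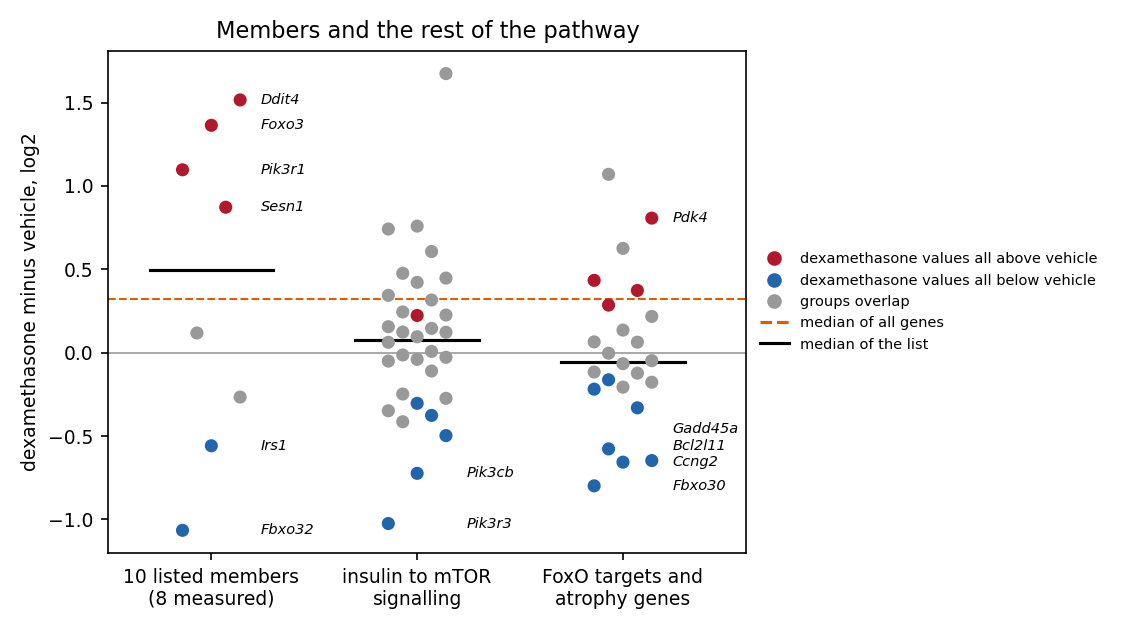
Dexamethasone minus vehicle difference (log2) of the measured members and of the other pathway genes, with genes coloured red where all dexamethasone values lie above all vehicle values, blue where all lie below and grey where the groups overlap. Black bars are list medians and the dashed line is the median of all genes, 0.32. Akt2 lies outside the plotted range.

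Over the 6 arrays, the genes whose pattern was most like that of Ddit4, the member with the smallest p, were Wnk4, Rassf2 and Clec2i among 13026 genes searched. The measure was the root-mean-square distance after each gene's own mean was subtracted, and it was 0.12, 0.15 and 0.15 on the log2 scale. Wnk4 gave 0.63, 0.57 and 0.98 with dexamethasone, against -0.63, -0.87 and -0.64 with vehicle.

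All 8 members had the same direction in each set of arrays taken alone as over all arrays, Foxo4 by 0.0080 in 1 of them. For the 6 members whose groups did not overlap this was fixed in advance, so only the sizes are informative. The sets were chosen with these data known, and each has a single array of 1 of the treatments. Within the set of dexamethasone 1, vehicle 1 and vehicle 2, the differences were 0.92 for Pik3r1, 1.06 for Foxo3, 1.20 for Sesn1, -0.63 for Fbxo32 and -0.31 for Irs1. Within the set of dexamethasone 2, dexamethasone 3 and vehicle 3 they were 1.04 for Pik3r1, 1.36 for Foxo3, 0.73 for Sesn1, -1.32 for Fbxo32 and -0.69 for Irs1. Over all genes the median was -0.052 in the set with vehicle 1 and 0.25 in the set with vehicle 3. Fbxo32 and Irs1 thus lay further below vehicle in the set where all genes together lay above it.

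**Figure D5:**
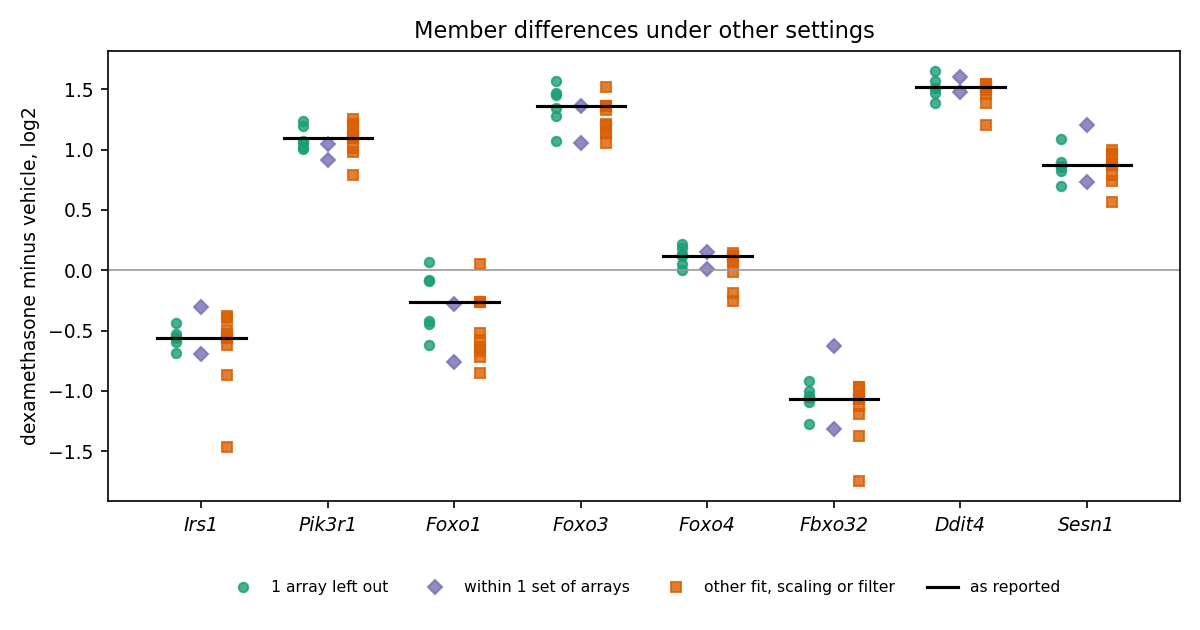
Dexamethasone minus vehicle difference (log2) of each member as reported (black bar), with 1 array left out (green circles), within 1 set of arrays (purple diamonds) and under another fit, scaling or filter (orange squares). Points of Foxo1 and Foxo4 fall on both sides of 0, and those of the other 6 members stay on 1 side. For these 6 the side of the green and purple points was fixed, since their groups do not overlap.

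The cell type could be checked only by which markers gave usable spots. All 10 fibroblast and mesenchymal markers had a probe free of low signal, against 6 of 9 skeletal muscle markers tested, 3 of 6 adipocyte markers and 1 of 7 blood, endothelial and epithelial markers. Over everything tested, 17152 of 27046 genes and unnamed probes were free of low signal. The muscle and adipocyte counts are near that share and do not tell whether the cells expressed these markers. The median log2 ratios below are those of each list. The median log2 ratio of the blood, endothelial and epithelial list followed the sets of arrays. It was -0.78, 1.86 and 1.83 on the dexamethasone arrays, against -0.31, -0.60 and 0.75 on the vehicle arrays. Muscle markers had a median difference of 1.06, adipocyte markers one of 0.80 and fibroblast markers one of -0.47. The muscle and adipocyte medians followed the sets too. Muscle markers stood at -0.068, 1.20 and 1.01 with dexamethasone, against -0.215, -0.60 and 0.22 with vehicle. Adipocyte markers stood at -0.70, 1.225 and 1.49, against -0.245, -0.42 and 0.28. Without overlap, 2 of 9 muscle markers lay above vehicle and 3 of 10 fibroblast markers below, against 10.4% and 6.42% of all genes. The 2 muscle markers were Myog and Myod1. Myog gave 0.72, 1.20 and 0.94 with dexamethasone, against -0.86, -0.60 and -0.68 with vehicle. Its difference was 1.67 ± 0.21 (SE), with a limma adjusted p of 0.223, and that of Myod1 was 0.88 ± 0.30 (SE). The groups of the other muscle markers overlapped. Of the 6 adipocyte markers, Fabp4 and Lpl lay above vehicle without overlap (10.4% of all genes), but Lpl had no probe free of low signal. The groups of the other adipocyte markers overlapped, and Pparg, with 3 probes free of low signal, differed by -0.42 ± 0.29 (SE). After the filter Fabp4 was the 1 of 3 that passed in limma at an adjusted p under 0.05. Their part in the member results was not tested. In a whole culture, fewer cells of a type and less RNA per cell cannot be told apart.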

How the data were processed

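Transcripts of 6 cultures were measured on 2-colour arrays. From their size and sign, the deposited values were read as log2 ratios between sample and pool. The authors used limma, per the submitters' processing notes; for its version, background correction and normalization the sources used here give nothing. In the deposited values, 4 of the columns hold some values beyond 100 in size and were recorded as score, a log2 ratio for nearly all rows. The labels describe the pool as RNA from DMSO, dexamethasone and myostatin cultures, the series description as vehicle and treated cells. The number of arrays limits the precision.

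Probes with 1 symbol (29456 of 38467) were averaged per gene and 2 values per group were required. The fit used R 4.3.3 and limma 3.58.1 (lmFit, eBayes), two-sided, with Benjamini-Hochberg adjustment over everything tested, also probe by probe, and no further normalization. An exact permutation test of 3 against 3 arrays has a smallest p of 0.1, so it was left out. SE comes from limma, and fold is 2 to the power of the difference. The fit was tested on simulated data. Members, gene lists, sets of arrays and the low-signal filter were chosen with earlier results of these data known. Named genes were all members, the 4 smallest p of each pathway list and the 3 genes nearest in pattern to the top member. Fkbp5, Per1, Zbtb16, Fabp4, Lpl, Pparg, Akt2, Pik3ca and Pik3r2 were named in addition. So were, after their values were seen, Myog, Myod1, Sesn2, Tsc1, Tsc2, Ddit4l, Akt1s1, Deptor and the ligase genes outside the members. Other settings were a replicate block, array scaling, filters, array weights, the sets as a block and leaving out arrays. FoxO protein identity was planned but not computed here.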

Additional observations from a re-analysis of the deposited data

How the results depend on the processing

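None of the 8 measured members passed an adjusted p of 0.05 in limma under any setting tried. For 6 of them, all except Foxo1 and Foxo4, the direction was the same in all 18 alternatives each. The groups of these 6 did not overlap, so only array scaling and the low-signal filter could have turned their direction. Foxo1 turned to 0.049 with array weights, and with 1 array left out it ran from -0.62 to 0.067, the last without vehicle replicate 3. Foxo4 turned to -0.19 after median centring, -0.26 after quantile normalization and -0.012 after the low-signal filter with median centring, a combination added after seeing the data. Members at an unadjusted p under 0.05 numbered from 4 to 6 when 1 array was left out, and those without overlap from 6 to 7. The 6 without dexamethasone replicate 1 stood beside 6947 of 23822 genes and unnamed probes. The 4 without vehicle replicate 2 stood beside 695 of 26458. How many of all genes had no overlap was not counted with an array left out or after array scaling. Leaving out an array cannot lower the number without overlap. That number was 5 after median centring, where Sesn1 also overlapped, and 5 after quantile normalization, where Sesn1 and Irs1 overlapped and Foxo1 did not. Over all genes, limma called 29 after the low-signal filter, 5 with values required on all 6 arrays and 10 after the filter with median centring, but 0 after the filter with the array sets as a block. At an unadjusted p under 0.05 there were 3269 with array weights and 939 after the filter with the array sets as a block, a combination also added later. Without 1 array that count ran from 695 (vehicle replicate 2) to 6947 (dexamethasone replicate 1). Without vehicle replicate 1 it was 786. Deviations from the group means had Spearman correlations of 0.21, -0.11 and 0.29 between same-numbered arrays, so a pairing by replicate number is not settled. By that measure dexamethasone 1 was closer to vehicle 2, at 0.30, than to vehicle 1. The log2 ratios themselves went the other way, at 0.40 with vehicle 2 and 0.52 with vehicle 1. With the replicate block 0 genes passed, and 1303 genes and 4 members had an unadjusted p under 0.05. Pik3r1, Foxo1, Foxo3 and Irs1 each had 1 probe called low in signal, a limit unless the whole-number match came by chance. For Foxo1 that probe had a missing value.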
